A study of Mus musculus with 12 samples.

Results

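Neutrophils are short-lived white blood cells that are made in bone marrow and leave the blood at sites of infection or injury. This set holds 34 mouse genes chosen by name for their known part in neutrophils, with earlier results of these data known. They encode granule proteins, surface receptors and a few enzymes and regulators. Of these, 33 had a row under the platform annotation, among 24011 genes with a symbol in the table, and Fpr1, a formyl peptide receptor gene, was not analysed here. The members were divided by the stage of neutrophil development at which they are mainly known to be transcribed. There are 4 precursor genes (azurophil granule proteins), 14 granule-stage genes and 15 measured genes of late and mature cells.

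Each neutrophil carries several kinds of granules that are filled in turn as the cell develops. Promyelocytes transcribe the azurophil proteases and myeloperoxidase, myelocytes and metamyelocytes transcribe the specific granule proteins such as lactoferrin, and band and segmented cells transcribe gelatinase and the receptors used for chemotaxis. Mature blood neutrophils therefore contain azurophil proteins whose transcripts have largely gone. In the liver, neutrophils are found in the sinusoids, in contact with the liver sinusoidal endothelial cells (LSECs), the fenestrated scavenger endothelium that was isolated here.

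The arrays measured total RNA of LSECs taken with CD146 beads from perfused livers of C57BL/6J mice aged 3 to 4 months. There were 4 genotypes with 3 arrays each: WT (labelled Ctrl), Stab1KO, Stab2KO and DKO, which lacks both. Stab1 and Stab2 encode the stabilins, scavenger receptors of this endothelium. Each array holds the RNA of 3 mice pooled, so spread between single animals cannot be seen. The labels give neither the alleles of the knockouts nor whether WT and knockout mice were littermates. In the pooled cells of a bead isolate, more cells of a type and more RNA per cell cannot be told apart.

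The deposited values are log2 expression values from RMA, with an array median of 5.11 and a range of 2.94 to 13.9. No detection call was given, so values near 4 hold an unknown share of background. Stab1 lay between 4.98 and 5.45 in the arrays that lack it and between 12.46 and 12.62 in the others, and Stab2 between 5.46 and 7.60 against 12.99 and 13.09. The mean of 14 defining LSEC and endothelial genes lay between 13.13 and 13.21 in 11 arrays and at 12.92 in DKO replicate 3. That array stood apart: it correlated with the others at 0.956 to 0.968 across genes, against at least 0.987 among the other 11. It is therefore given apart below, and each comparison with DKO is given with and without it.

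DKO replicate 3 carried granule-stage and mature neutrophil transcripts at levels that no other array approached, while the precursor transcripts had shorter leads. All 14 granule-stage genes and all 15 mature genes lay more than 1 log2 above the highest of the other 11 arrays, as did 2 of the 4 precursor genes. The same held for 592 of all 24011 genes (2.47%). No member had such a lead in any other array, where 0 to 9 genes of the table had one. The median lead of DKO replicate 3 over the mean of the other 11 arrays was 5.98 log2 for granule-stage genes, 5.59 for mature genes and 1.25 for precursor genes. Ranked by that lead among all genes, 11 members were among the first 20 and 24 among the first 100. The members were chosen with earlier results of these data known, so these counts and ranks only describe them. This is 1 array, so these differences have no replicate check and no test.

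**Figure D1:**
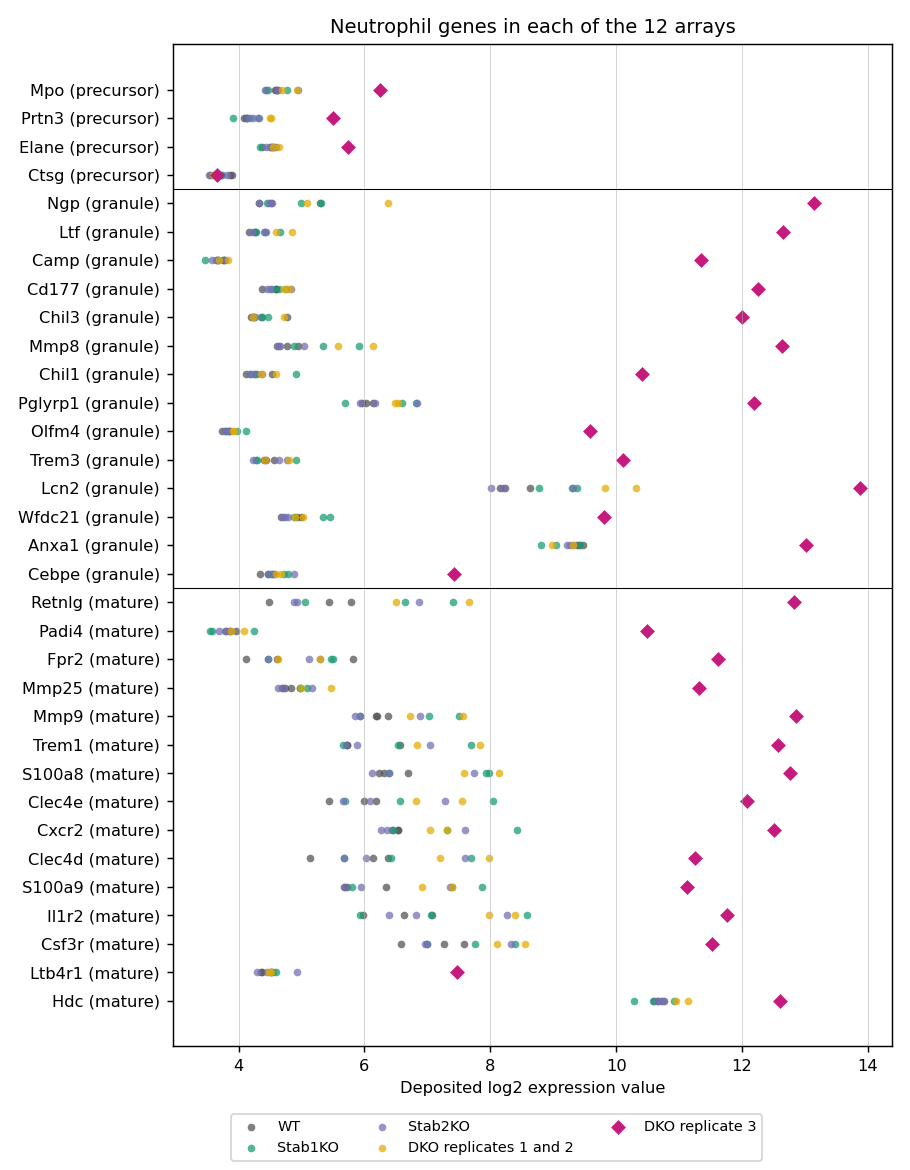
Deposited log2 values (x axis) of the 33 measured neutrophil genes (y axis, ordered by stage and by the lead of DKO replicate 3). Each point is 1 array, coloured by genotype, and the diamonds are DKO replicate 3, which lies above the other 11 arrays for 32 of 33 genes, Ctsg being the exception.

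The specific granule proteins had the longest leads on the scale of the deposited values. For genes near background in the other arrays the true fold, and so the order of their leads, was not measured. Ngp, which encodes neutrophilic granule protein, measured 4.51, 4.32 and 5.29 in the WT arrays, 4.44, 4.99 and 5.31 in Stab1KO, 4.48, 4.33 and 4.54 in Stab2KO and 5.08, 6.38 and 13.15 in DKO. DKO replicate 3 was thus 8.27 log2 above the mean of the other 11 arrays, and the next highest array was DKO replicate 2. Ltf, which encodes the iron-binding protein lactoferrin, measured 4.26, 4.17 and 4.25 in the WT arrays, 4.42, 4.27 and 4.66 in Stab1KO, 4.22, 4.40 and 4.44 in Stab2KO and 4.59, 4.85 and 12.66 in DKO. Its lead was 8.25 log2, and the other 11 arrays spanned only 0.68 log2, all below the array median. Camp, which encodes the antimicrobial peptide cathelicidin, measured 3.76, 3.66 and 3.76 in the WT arrays, 3.67, 3.47 and 3.67 in Stab1KO, 3.64, 3.57 and 3.79 in Stab2KO and 3.68, 3.84 and 11.35 in DKO. The 11 other arrays of Camp spanned 0.37 log2, all below the array median, with DKO replicates 1 and 2 at the same low level as the rest.

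Other granule-stage genes followed the same pattern. Cd177, which encodes a surface glycoprotein of neutrophils, lay between 4.37 and 4.83 in 11 arrays and at 12.25 in DKO replicate 3. Chil3, a chitinase-like gene that macrophages can also express, lay between 4.19 and 4.77 and at 11.99. Chil3 has close paralogs, so its value is uncertain in that respect. The collagenase gene Mmp8 lay between 4.60 and 6.13 and at 12.63, and the peptidoglycan-binding protein gene Pglyrp1 between 5.69 and 6.83 and at 12.19. Olfm4, Chil1, Trem3 and Wfdc21 had leads over the 11-array mean of 5.71, 6.05, 5.59 and 4.86 log2. For 8 of the 14 granule-stage genes, all 11 other arrays lay below the array median.

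The smallest leads of this stage were those of a regulator and of a gene with a high level elsewhere. Cebpe, which encodes the transcription factor C/EBP-epsilon needed for specific granules, lay between 4.34 and 4.88 in 11 arrays and at 7.42 in DKO replicate 3. Anxa1, which encodes the anti-inflammatory protein annexin A1 and is transcribed in many cell types, lay between 8.81 and 9.47 and at 13.02. Lcn2, which encodes the siderophore-binding protein lipocalin-2 and is also made by hepatocytes in the acute phase, measured 8.24, 8.15 and 8.63 in the WT arrays, 8.77, 9.30 and 9.38 in Stab1KO, 8.02, 8.20 and 9.32 in Stab2KO and 9.82, 10.32 and 13.87 in DKO. Its value in DKO replicate 3 was the highest of any gene on that array, and its lead was 4.95 log2. All 3 DKO values of Lcn2 lay above the 9 values of the other genotypes.

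Precursor genes had short leads. Mpo, the myeloperoxidase gene, measured 4.58, 4.62 and 4.60 in the WT arrays, 4.43, 4.46 and 4.77 in Stab1KO, 4.60, 4.42 and 4.94 in Stab2KO and 4.93, 4.69 and 6.24 in DKO. Elane, the neutrophil elastase gene, lay between 4.33 and 4.65 in 11 arrays and at 5.73 in DKO replicate 3, and its neighbour Prtn3, the proteinase 3 gene, between 3.92 and 4.52 and at 5.50. Ctsg, the cathepsin G gene, lay between 3.53 and 3.89 and at 3.65, within the range of the other arrays. The leads of these 4 genes ran from -0.04 to 1.60 log2, below the lowest lead of a granule-stage gene (2.83), and were the lowest 4 of the 33.

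**Figure D2:**
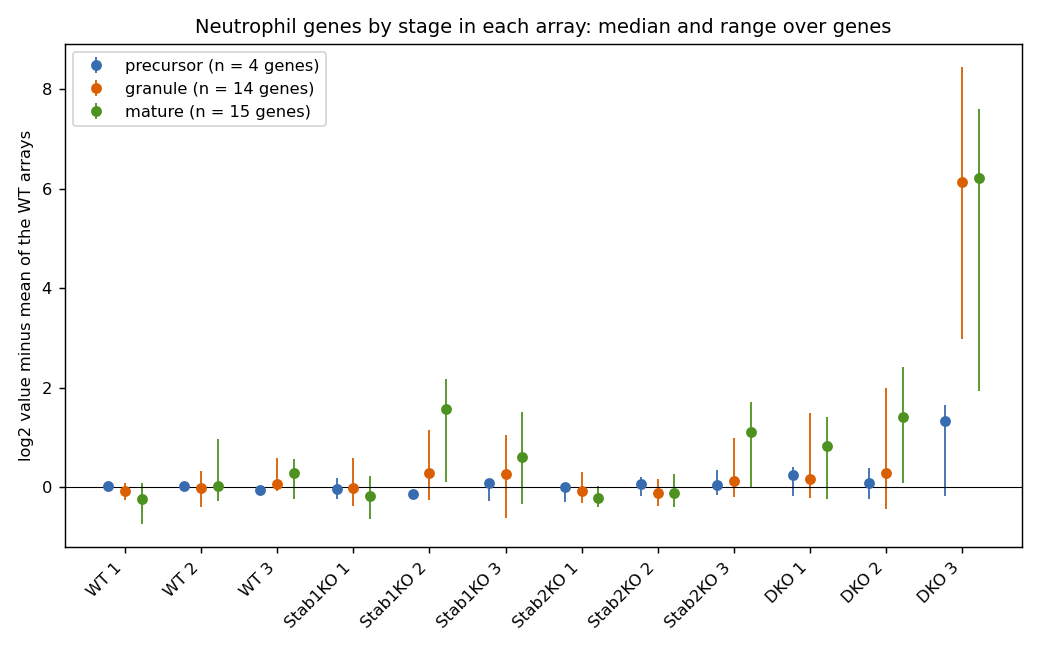
Median (points) and range (bars) over the members of each stage of the log2 value minus the mean of the WT arrays, for each of the 12 arrays on the x axis. In DKO replicate 3 the granule-stage and mature medians stand at 6.13 and 6.20 and the precursor median at 1.33. In the other arrays the mature median varied most, up to 1.57 in Stab1KO replicate 2.

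The start regions of 5 members are shown as examples of each stage: Mpo for the precursor genes, Ltf, Ngp and Lcn2 for the granule-stage genes, and Retnlg for the mature genes. Each run is 250 bases before to 50 bases after the transcription start in RefSeq (GRCm38.p6), written 5′ to 3′ on the gene's strand. Capitals mark matches on either strand to the letters TTGCNNAA, a form of the C/EBP motif, and GAGGAA, the core of the PU.1 motif.
Ltf, chr9:111019042-111019341, plus strand: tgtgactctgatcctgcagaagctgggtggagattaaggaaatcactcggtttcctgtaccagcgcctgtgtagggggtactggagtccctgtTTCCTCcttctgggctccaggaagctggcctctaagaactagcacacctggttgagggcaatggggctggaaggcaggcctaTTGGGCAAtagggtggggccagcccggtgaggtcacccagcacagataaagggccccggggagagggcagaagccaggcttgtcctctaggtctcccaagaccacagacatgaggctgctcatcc
Ngp, chr9:110419558-110419857, plus strand: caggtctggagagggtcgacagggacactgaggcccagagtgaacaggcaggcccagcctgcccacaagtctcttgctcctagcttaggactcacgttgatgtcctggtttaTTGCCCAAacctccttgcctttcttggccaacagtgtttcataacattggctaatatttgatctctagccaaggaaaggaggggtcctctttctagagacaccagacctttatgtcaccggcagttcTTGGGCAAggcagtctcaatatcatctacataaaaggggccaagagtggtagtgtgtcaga
Lcn2, chr2:32387690-32387989, minus strand: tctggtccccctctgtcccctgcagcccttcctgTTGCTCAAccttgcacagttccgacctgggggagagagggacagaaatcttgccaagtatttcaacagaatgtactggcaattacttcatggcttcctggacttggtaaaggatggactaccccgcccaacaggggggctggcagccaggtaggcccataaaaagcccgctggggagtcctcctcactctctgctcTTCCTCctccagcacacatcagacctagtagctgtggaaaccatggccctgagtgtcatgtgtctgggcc
Retnlg, chr16:48872358-48872657, plus strand: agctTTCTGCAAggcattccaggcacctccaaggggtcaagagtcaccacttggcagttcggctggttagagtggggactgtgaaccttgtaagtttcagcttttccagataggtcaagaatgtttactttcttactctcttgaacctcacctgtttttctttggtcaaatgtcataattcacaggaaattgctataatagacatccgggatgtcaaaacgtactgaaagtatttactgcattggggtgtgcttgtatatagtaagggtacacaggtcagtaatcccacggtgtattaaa
Mpo, chr11:87793534-87793833, plus strand: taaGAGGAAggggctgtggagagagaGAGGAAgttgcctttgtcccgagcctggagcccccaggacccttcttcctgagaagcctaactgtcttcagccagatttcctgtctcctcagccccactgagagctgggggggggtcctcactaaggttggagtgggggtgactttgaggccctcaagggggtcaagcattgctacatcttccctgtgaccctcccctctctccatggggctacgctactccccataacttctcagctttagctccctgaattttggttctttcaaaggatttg

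Of the 33 measured members 29 had such a region in the RefSeq table, and Mmp9, Cebpe, Trem3 and Wfdc21 did not match. TTGCNNAA occurred in 8 of the 29 (27.6%), beside 10.8% of 27025 start regions of the table. The 8 were 5 of 11 granule-stage, 3 of 14 mature and 0 of 4 precursor genes. GAGGAA occurred in 20 of the 29 (69.0%), beside 28.3%, and these were 7 granule-stage, 9 mature and all 4 precursor genes. The printed Ngp region holds 2 matches to the first motif and 0 to the second, and that of Mpo 0 and 2. The letters of the 2 motifs overlap at no printed match. A match describes letters in this window and is not a measured binding site.

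Mature-stage members varied across the other arrays as well, over a wider span than most granule-stage members. The 11 arrays spanned a median of 2.02 log2 for a mature gene and 0.68 for a granule-stage gene. All 11 lay below the array median for 8 of 14 granule-stage genes and 2 of 15 mature genes, and near background a span may be understated. Relative to the WT mean, the median over the 15 mature genes was -0.24, 0.03 and 0.28 in WT replicates 1 to 3 and -0.18, 1.57 and 0.61 in Stab1KO. It was -0.21, -0.12 and 1.10 in Stab2KO and 0.83, 1.40 and 6.20 in DKO. Arrays with raised mature genes thus occurred in all 3 knockout genotypes, namely Stab1KO replicates 2 and 3, Stab2KO replicate 3 and the DKO arrays. The medians of Stab1KO replicate 1 and Stab2KO replicates 1 and 2 lay within those of WT. Within each genotype, WT included, replicate 1 had the lowest median, and an effect of the replicate number was not tested. The matching granule-stage medians were 0.29 and 0.26 in Stab1KO replicates 2 and 3, 0.12 in Stab2KO replicate 3, and 0.16 and 0.28 in DKO replicates 1 and 2.

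Chemoattractant receptors guide neutrophils along gradients. Cxcr2, the receptor for CXC chemokines such as CXCL1 and CXCL2, measured 6.43, 6.53 and 6.53 in the WT arrays, 6.46, 8.43 and 7.32 in Stab1KO, 6.26, 6.35 and 7.60 in Stab2KO and 7.31, 7.04 and 12.51 in DKO. Outside DKO replicate 3 the highest value was that of Stab1KO replicate 2. Fpr2, a formyl peptide receptor gene, lay between 4.12 and 5.82 in 11 arrays, highest in WT replicate 2, and at 11.62 in DKO replicate 3. Ltb4r1, which encodes the leukotriene B4 receptor BLT1, had a smaller lead, with 4.30 to 4.93 in 11 arrays and 7.48 in DKO replicate 3.

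Cytokine and innate receptors also varied among the 11 arrays. Il1r2, which encodes the decoy receptor for interleukin-1, measured 5.98, 6.63 and 7.07 in the WT arrays, 5.93, 8.59 and 7.05 in Stab1KO, 6.39, 6.81 and 8.27 in Stab2KO and 7.98, 8.40 and 11.76 in DKO. Csf3r, which encodes the G-CSF receptor that drives granulocyte production, lay between 6.58 and 8.54 in 11 arrays and at 11.52 in DKO replicate 3. Both were high in Stab1KO replicate 2, Stab2KO replicate 3 and DKO replicates 1 and 2, and WT and the single knockouts overlapped. Clec4d and Clec4e, adjacent genes for C-type lectins that sense microbial glycolipids, lay at 5.14 to 7.98 and 5.44 to 8.05 in 11 arrays, and at 11.26 and 12.08 in DKO replicate 3. Trem1 and Trem3 are also adjacent, and encode activating receptors. Trem1 spanned 5.66 to 7.84 in the 11 arrays, and Trem3 only 4.22 to 4.91, and they reached 12.57 and 10.11 in DKO replicate 3.

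Among secreted and cytosolic products of late neutrophils, the highest of the 11 other arrays differed from gene to gene. Retnlg, which encodes resistin-like gamma, measured 4.49, 5.43 and 5.78 in the WT arrays, 5.05, 7.41 and 6.64 in Stab1KO, 4.87, 4.92 and 6.86 in Stab2KO and 6.50, 7.66 and 12.83 in DKO. It had the widest span of all members over the 11 arrays, 3.17 log2. The adjacent genes S100a8 and S100a9 encode the subunits of calprotectin, an abundant calcium-binding protein of neutrophil and monocyte cytosol. S100a8 measured 6.23, 6.32 and 6.70 in the WT arrays, 6.39, 7.98 and 7.93 in Stab1KO, 6.12, 6.38 and 7.74 in Stab2KO and 7.58, 8.14 and 12.76 in DKO. S100a9 spanned 5.67 to 7.86 in the 11 arrays, highest in Stab1KO replicate 2, and reached 11.13 in DKO replicate 3. The lead of S100a9 over the 11-array mean (4.57) was below that of S100a8 (5.71).

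Among late proteases and enzymes, Mmp9, the gelatinase B gene, lay between 5.85 and 7.57 in 11 arrays and at 12.85 in DKO replicate 3. Mmp25, which encodes a membrane-anchored metalloproteinase of leukocytes, lay between 4.62 and 5.47 and at 11.31. Padi4, which encodes the histone-citrullinating enzyme of neutrophil extracellular traps, lay between 3.55 and 4.25 and at 10.49, so its span in the 11 arrays (0.70) was close to the granule-stage median. Hdc, the histidine decarboxylase gene that makes histamine, measured 10.61, 10.76 and 10.67 in the WT arrays, 10.29, 10.92 and 10.59 in Stab1KO, 10.71, 10.65 and 10.73 in Stab2KO and 10.95, 11.15 and 12.61 in DKO. It was high in every array and had the smallest lead of the mature genes, 1.88 log2.

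Against WT, no member passed the test in a single knockout. In Stab1KO 0 of 33 members were called, beside 0.308% of all genes, where a call means an adjusted p under 0.05 in limma with Benjamini-Hochberg adjustment over 24011 genes. At an unadjusted p under 0.05 there was 1 member, a lower one, beside 3.91% of all genes. In Stab2KO 0 of 33 were called, beside 0.296% of all genes, and 0 had an unadjusted p under 0.05, beside 7.62%. The median log2 difference over the members was 0.22 in Stab1KO and 0.08 in Stab2KO, beside 0.01 over all genes in each. The 3 Stab1KO arrays all lay above the 3 WT arrays for 4 members, Lcn2, Ltb4r1, Ltf and Mmp25, beside 5.36% of all genes, and the 3 Stab2KO arrays for 0 members, beside 8.09%. Without DKO replicate 3, which enters these fits only through the shared spread, 4 members in Stab1KO had an unadjusted p under 0.05, 3 of them higher, beside 4.9% of all genes, and 0 were called.

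In DKO against WT 32 of 33 members were higher on average, with a median log2 difference of 2.45, and 0 were called, beside 1.8% of all genes. At an unadjusted p under 0.05 limma gave 14 members, all higher, beside 16.7% of all genes. The median over all genes was -0.02. The differences were widest for Retnlg (3.76 ± 1.35, SE), Ngp (3.50 ± 1.55), Mmp8 (3.34 ± 1.40) and Ltf (3.14 ± 1.62). Their adjusted p-values in limma were 0.20, 0.29, 0.27 and 0.37. The lowest adjusted p of a member was that of Lcn2 (3.00 ± 0.84, adjusted p = 0.10). For members such as Ltf the DKO mean rests mostly on 1 array: Ltf measured 7.37 ± 4.58 (SD, n = 3) in DKO and 4.23 ± 0.05 in WT.

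Without DKO replicate 3 the median over the 33 members was 0.39, beside -0.01 over all genes, and the stages parted. The median was 1.18 log2 for mature genes, 0.18 for granule-stage genes and 0.17 for precursor genes. In these 11 arrays 8 of 14 granule-stage and 4 of 4 precursor genes lay wholly below the array median, against 2 of 15 mature genes. Near background a small rise may not show, so the stages cannot be compared evenly. Only Lcn2 was called (1.73 ± 0.35, adjusted p = 0.040), 1 of 33 members beside 1.77% of all genes. Lcn2 measured 8.34 ± 0.25 (SD, n = 3) in WT and 10.07 on average in DKO replicates 1 and 2. The sorted values of DKO replicate 1 differed from those that all other arrays share, and the part of this in these differences was not tested. When a further array was left out and DKO kept 2 arrays, Lcn2 had an adjusted p under 0.05 in 3 of 9 fits, with a range of 0.0045 to 0.12. In the 2 fits that left 1 DKO array, which is then assumed to vary like the other groups, the adjusted p was 0.12 and 0.28. At an unadjusted p under 0.05 there were 13 members, all higher, beside 13.9% of all genes. These included Retnlg (1.84 ± 0.76, adjusted p = 0.31), Clec4d (1.71 ± 0.67, adjusted p = 0.27), Il1r2 (1.63 ± 0.72, adjusted p = 0.35), S100a8 (1.44 ± 0.53, adjusted p = 0.24) and Mmp8 (1.08 ± 0.27, adjusted p = 0.081). Camp, Chil3 and Fpr2, which had long leads in DKO replicate 3, differed from WT by 0.03 ± 0.10, 0.04 ± 0.17 and 0.11 ± 0.49.

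**Figure D3:**
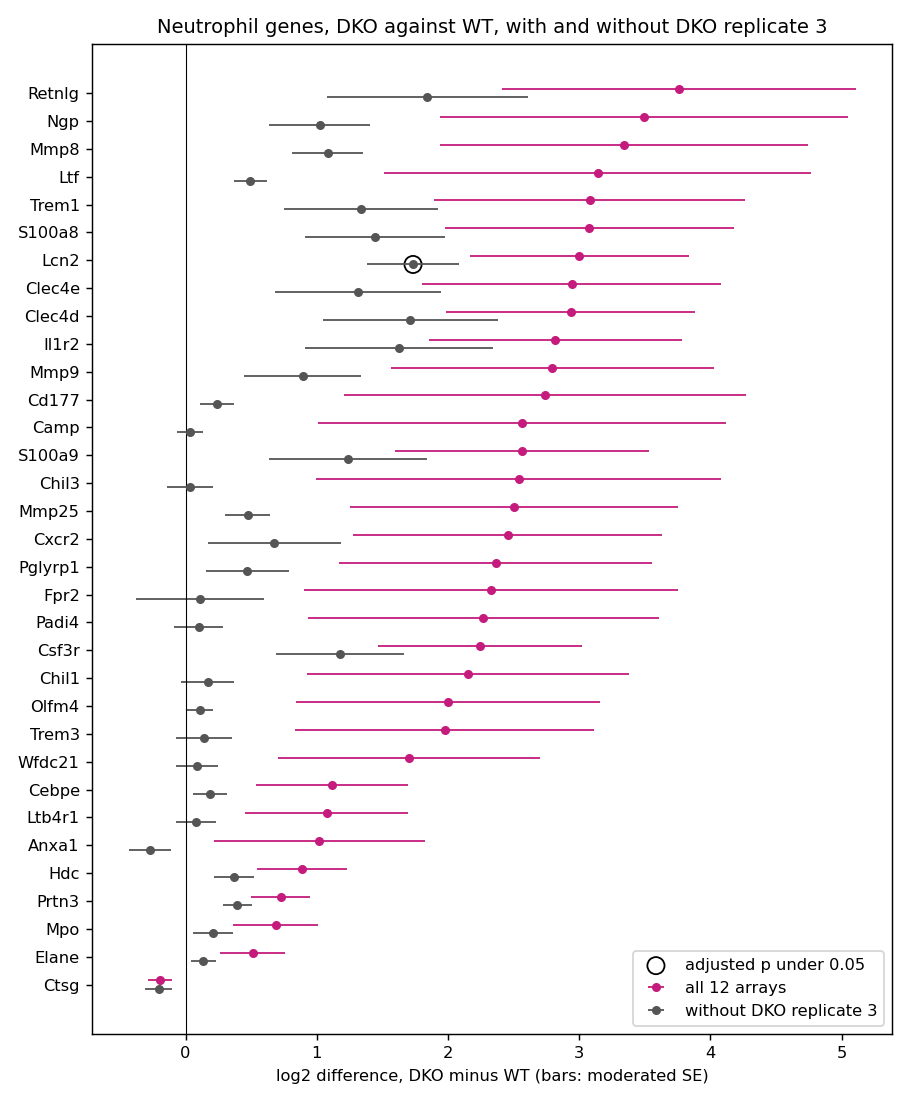
Log2 difference of DKO minus WT (x axis) for each of the 33 members (y axis), from limma with all 12 arrays and without DKO replicate 3. Points are estimates, bars are moderated standard errors, and the ring marks Lcn2, called without that array (1.73 ± 0.35).

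Both other DKO arrays lay above all 3 WT arrays for 22 of 33 members, beside 16.1% of all genes, and so did all 3 DKO arrays, beside 8.97%. The 22 were 12 of 15 mature, 7 of 14 granule-stage and 3 of 4 precursor genes. Both lay more than 1 log2 above the WT mean for 6 members, the mature genes Retnlg, S100a8, S100a9, Il1r2 and Clec4d and the granule-stage gene Lcn2. Above all 9 arrays of the other genotypes there were 3 members, Hdc, Lcn2 and Prtn3, beside 5.67% of all genes. For Hdc the DKO replicates 1 and 2 measured 10.95 and 11.15, and the highest of the 9 was 10.92. DKO replicate 2 was above DKO replicate 1 for 14 of 15 mature genes, 11 of 14 granule-stage genes and 0 of 4 precursor genes. The share of all genes was not counted for this order or for the rise of more than 1 log2. The counts for that order and that rise therefore do not set the members apart from other genes. All counts here are of members chosen with earlier results of these data known.

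**Figure D4:**
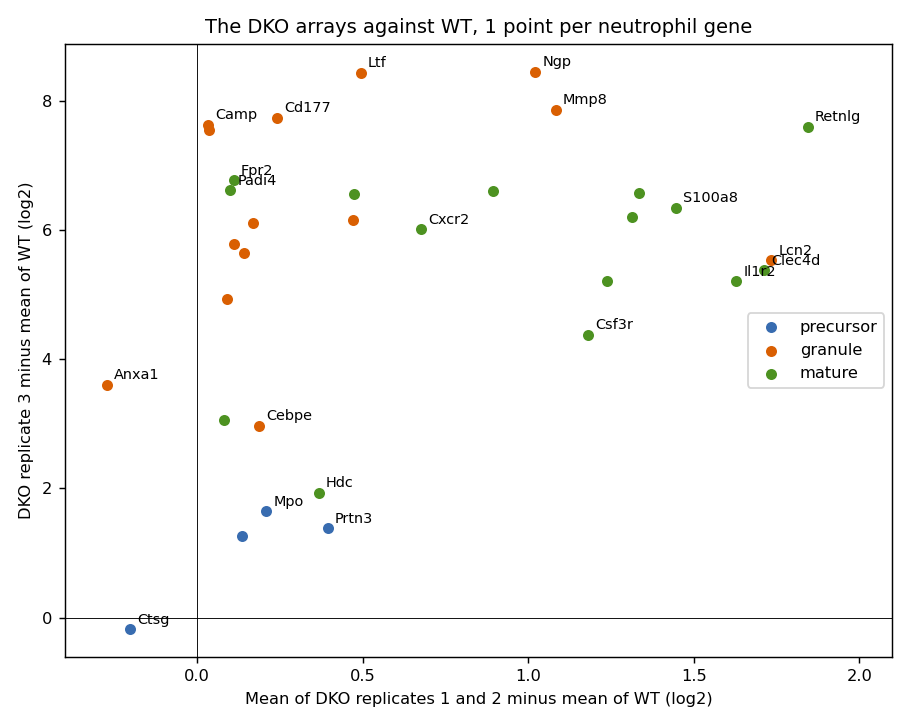
Each point is a neutrophil gene, coloured by stage, with the mean of DKO replicates 1 and 2 minus the WT mean on the x axis and DKO replicate 3 minus the WT mean on the y axis (log2). Granule-stage genes such as Camp and Cd177 stand near 0 on the x axis and above 7 on the y axis, whereas Retnlg, Lcn2, Clec4d and Il1r2 lie to the right as well.

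Against the single knockouts at most 1 member was called as well, but the median differences were smaller than against WT. Without DKO replicate 3 the median over the members was 0.19 against Stab1KO and 0.28 against Stab2KO, beside 0.39 against WT. For the mature genes it was 0.42 and 0.84, beside 1.18. In DKO against Stab1KO 0 of 33 members were called with all arrays (0.945% of all genes) and 0 without DKO replicate 3 (1.49%). At an unadjusted p under 0.05 limma gave 6 and 3 members, all higher in DKO, beside 16.2% and 13.7% of all genes. In DKO against Stab2KO 0 were called with all arrays (3.42%), and 1 without DKO replicate 3, Lcn2 (1.56 ± 0.35, adjusted p = 0.043), beside 3.42% again. The unadjusted counts were 13 and 7, all higher, beside 18.9% and 17.9% of all genes. These comparisons and the one against WT share the DKO arrays. The departure from additivity, the Stab1 effect with Stab2 present minus that without it, was called for 0 members with all arrays (0.05% of all genes) and for 0 without DKO replicate 3 (0.466%), and 0 members had an unadjusted p under 0.05 in either. Its median over the members was -1.77 with that array and -0.15 without it.

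Other neutrophil genes were high in DKO replicate 3 too. All 23 measured genes of a list of further late neutrophil genes lay more than 1 log2 above the other 11 arrays there, and the list mean was 10.39 against 5.45 to 6.47. Ly6g, which encodes the marker commonly used to sort mouse neutrophils, lay between 3.50 and 4.05 in 11 arrays and at 11.65. The integrin gene Itgb2l reached 10.79 against at most 3.96, Ifitm6 11.44 against at most 4.94, and the stefin gene Stfa2l1 11.42 against at most 5.81. All 5 measured genes of the NADPH oxidase, the enzyme of the oxidative burst, lay more than 1 log2 above the others, with a mean of 11.79 against 7.50 to 8.48. No gene of these lists was called in DKO against WT with all arrays. Without that array Gca, which encodes the calcium-binding protein grancalcin, was called (1.64 log2, adjusted p = 0.017). Gca measured 6.29 and 6.33 in DKO replicates 1 and 2 and at most 5.17 in the arrays of the other genotypes.

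Regulators and progenitor genes moved less uniformly. Of 8 granulocyte transcription factor genes, 4 lay more than 1 log2 above the other arrays in DKO replicate 3: Spi1, which encodes PU.1 (11.77), Cebpb (9.93), Runx1 (8.23) and Myb (5.84). Another 3 were lowest there, and the list mean was 8.06 against 6.73 to 7.27. Cebpd was called in DKO against Stab2KO without that array (0.99 log2, adjusted p = 0.016). Of 12 genes of granulocyte progenitors, some of which LSECs also transcribe, 6 lay more than 1 log2 above. Those with the longest leads were Serpinb1a (8.89), Hp (12.04), Igsf6 (12.23) and Clec12a (10.63), and they do not stand for the whole list. In that array 8 of the 12 were highest and 1 was lowest. The mean of the 12 was 8.66 against 6.51 to 7.14.

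Some ligands lay above all other arrays in DKO replicate 3, whereas 0 of 10 genes for endothelial receptors for leukocytes did and 4 were lowest there. The share of all genes highest or lowest in that array was not counted. Of 16 chemoattractant and growth factor genes, 5 lay more than 1 log2 above the other arrays in DKO replicate 3, 8 were highest there and 4 lowest. Their median lead over the mean of the other arrays was 0.11 log2, and the list mean was 7.94 against 6.40 to 7.41. Cxcl2, a ligand of CXCR2, measured 12.22 against at most 9.20, Il1b 12.94 against at most 10.64, Tnf 10.79 against at most 9.27 and Cxcl3 6.69 against at most 4.24. Cxcl1, another CXCR2 ligand, was instead higher in DKO replicates 1 and 2 (9.44 and 9.55) than in DKO replicate 3 (8.53), and was called without the latter (1.47 log2, adjusted p = 0.032). Endothelial receptors for leukocytes were highest in DKO replicates 1 and 2, with list means of 10.66 and 10.80, and DKO replicate 3 had 10.14, within the range of the other genotypes. Selp, the P-selectin gene, rose in DKO with all arrays (1.57 ± 0.27, adjusted p = 0.019), and Jam3 fell (-0.74 ± 0.16, adjusted p = 0.045). Without DKO replicate 3, Sele, Selp and Icam1 were called higher (2.20, 1.77 and 1.07 log2, adjusted p = 0.049, 0.013 and 0.034), and Jam3 had an adjusted p of 0.093.

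Against the single knockouts, a few more genes of these lists passed the test. Without DKO replicate 3, Gca (1.63 log2, adjusted p = 0.022), Sele (2.36, adjusted p = 0.043) and Vcam1 (0.94, adjusted p = 0.030) were higher than in Stab1KO. Against Stab2KO in the same fit, Gca (1.79), Lrg1 (1.07) and Selp (1.24) were higher, with adjusted p-values of 0.013, 0.010 and 0.042. With all arrays and without that one, Icam2 was lower (-0.68 and -0.50) and Ackr1 and the monocyte list gene Fn1 were higher in DKO than in Stab2KO (0.72 and 0.82 for Ackr1, 1.51 and 1.42 for Fn1). Jam3 and Pax5 were called lower with all arrays (-0.75 and -0.52) and lost the call without DKO replicate 3 (-0.64 and -0.44, adjusted p = 0.061 and 0.10). The cell cycle genes Ccnb2, Ccna2 and Aurka were called lower without that array (-1.01, -1.08 and -0.77) and not with it (-0.50, -0.75 and -0.52).

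Markers of other blood and liver cells were compared in the same array. Of 10 monocyte genes only Ly6c2 lay more than 1 log2 above the others (3.39 above the highest of them), and the list mean was 7.28 against 6.08 to 6.93. Without DKO replicate 3, Ly6c2 was called in DKO against WT (1.35 log2, adjusted p = 0.029), as Ace was with all arrays (1.01 ± 0.22, adjusted p = 0.046). Of 11 eosinophil, basophil and mast cell genes only Siglecf did (6.26 against at most 4.32), and the list mean was 3.93 against 3.71 to 3.80. Kupffer cell genes had a mean of 8.24 in DKO replicate 3, within the 7.38 to 9.73 of the other arrays. The erythroid, B cell precursor, platelet, T and natural killer cell and proliferation lists had no gene more than 1 log2 above the others. Their means there were 3.83, 4.89, 5.88, 6.09 and 6.69, against highest values of 4.33, 5.25, 5.94, 6.36 and 6.92 in the other arrays. The erythroid mean was just below the lowest of the other arrays (3.85), and the means of the remaining lists lay within their range. The hepatocyte list had a mean of 8.32, against 8.20 to 9.74. Of the 14 LSEC and endothelial genes 13 were lowest in DKO replicate 3, by less than 1 log2 each. The share of all genes lowest in that array was not counted, so this count does not set these genes apart. The part of these values in the neutrophil result was not tested.

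**Figure D5:**
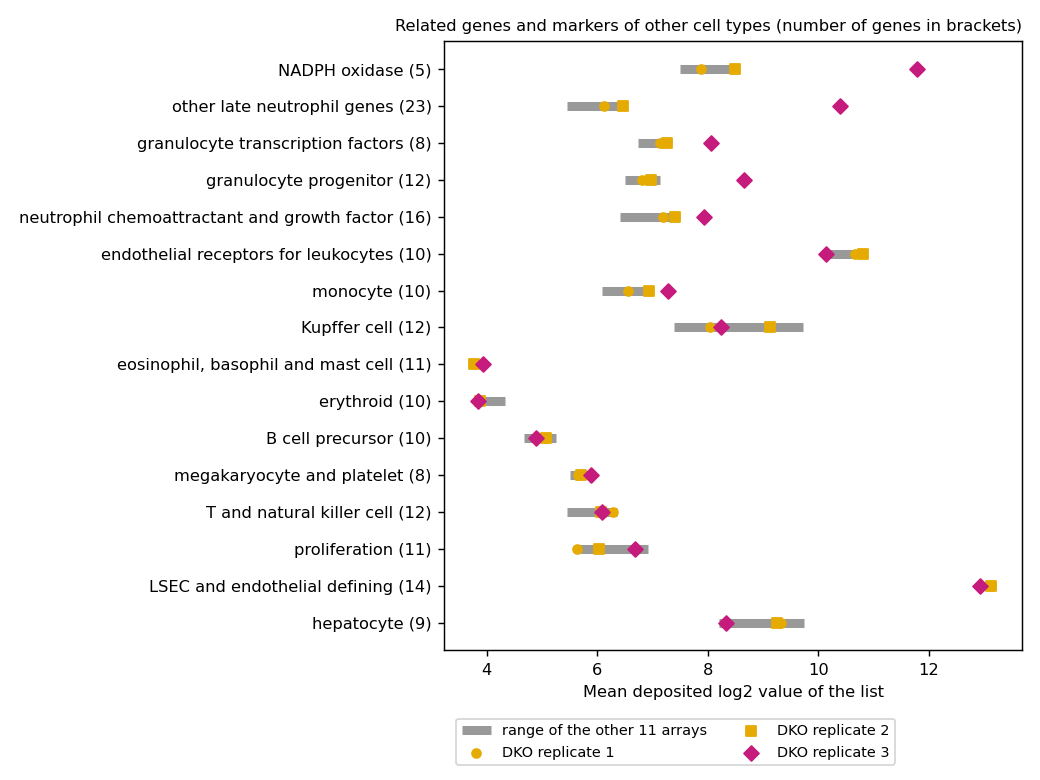
Mean deposited log2 value (x axis) of each list of related genes or cell markers (y axis, number of measured genes in brackets). Grey bars span the 11 other arrays, circles and squares are DKO replicates 1 and 2, and diamonds are DKO replicate 3, which lies beyond the bar for the NADPH oxidase (11.79) and late neutrophil lists (10.39) and inside it for Kupffer cell markers (8.24).

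Beyond members and lists, the 20 genes with the largest gap between DKO replicate 3 and the next highest array were led by Ly6a2 (12.55 against at most 6.13), of the same family as Ly6g. Further genes were Clec5a, an activating receptor of myeloid cells (9.95 against at most 4.14), Alox5, the 5-lipoxygenase that begins leukotriene synthesis (10.40 against at most 4.64), and the cytokine gene Osm (12.43 against at most 7.15). The surface lectin gene Cd33 (12.10 against at most 7.31), Mcemp1 (11.06 against at most 6.29), the glycogen phosphorylase gene Pygl (11.02 against at most 6.41) and S100a6 (11.92 against at most 6.79) were also among them. In the other direction 14 genes lay more than 1 log2 below the other 11 arrays in DKO replicate 3.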

How the data were processed

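Expression was measured on 12 Affymetrix arrays. Per the submitters' processing notes the authors used RMA, and the deposited table holds 24973 rows of log2 values, 1 per gene identifier and array. Not given in the sources used here: RMA version and genome build. The sorted values were identical in 11 arrays, as after quantile normalization, and differed in DKO replicate 1. Precision is limited by having 3 pools a genotype.

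Rows were named through the platform annotation: 24015 had 1 symbol, 0 had several and 958 are unnamed here. The row with the highest mean was kept per symbol, which left 24011 genes. Tests used limma 3.58.1 (R 4.3.3) with 4 group means over 12 arrays, moderated and two-sided, and Benjamini-Hochberg adjustment over all genes within each of 6 contrasts. It was tested on simulated arrays. Promoter motifs were counted in Python 3.11.15.

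The members, the stages, the 16 lists and the tests were chosen with earlier results of these data known, so no p is adjusted over the members and no set test was run. Named were all members, called list genes and up to 4 list genes with the longest lead in DKO replicate 3. Of the 20 further genes with the largest gap there, placeholder symbols left out, only some are named.

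Replicate numbers are shared by the genotypes. Deviations from the group means correlated over 0.1 in 4 of 18 same-numbered and 5 of 36 different-numbered pairs, and the numbers were not taken as pairs. Other settings tried were the replicate block, leaving out arrays singly, fitting the compared arrays by themselves, array weights, trend and robust options, a low-signal filter, further normalization, and every row with a symbol.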

Additional observations from a re-analysis of the deposited data

How the results depend on the processing

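In DKO against WT and in DKO against Stab2KO, 0 members were called with all arrays, and 1, Lcn2, was called without DKO replicate 3 and also with array weights, which gave that array a weight of 0.254 (lowest of the 12). Leaving out each array in turn gave 0 to 1 called members in these 2 comparisons and 0 to 0 in the other 4. The median log2 difference in DKO against WT, 2.45 with all arrays, ranged from 0.39 to 3.41 over the same fits and was 0.85 with array weights. In DKO against WT the direction of 1 member turned: Anxa1 measured 1.75 without DKO replicate 2 and -0.27 without DKO replicate 3 (adjusted p = 0.50). Without DKO replicate 3 the direction also turned for 7 members against Stab1KO, 2 against Stab2KO and 9 in the departure from additivity, none of them called. Lcn2 measured 1.73 without DKO replicate 3 and 2.06 with array weights (adjusted p = 0.036).

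With the replicate block 0 members were called in all 6 comparisons, and the median in DKO against WT stayed at 2.45, while genes called over the whole table went from 432 to 508 there. Same-numbered arrays correlated at -0.06 to 0.29 in their deviations (median 0.055), and different-numbered arrays at -0.27 to 0.21 (median -0.038). The ranges overlap, and no pairing was assumed. Within each genotype the median of the mature members was lowest in replicate 1, and a shared effect of the number on the members was not tested. The low-signal filter, trend and robust options, further normalization, every row and only the arrays compared also gave 0 called members in each comparison they were run for. The filter kept 28 of 33 members, some of them through DKO replicate 3 alone, so its median of 2.52 is not over all members. Over all genes, the count in DKO against WT was 1111 with array weights and 97 with only the arrays compared, and 125 to 510 with each array left out. Leaving out DKO replicate 3 together with each other array was chosen after the data were seen. Detection calls were not used here, so low values were not separated from background.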
